A study of Homo sapiens with 8 samples.

Results

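The multidomain members of the BCL-2 family and their mitochondrial partner VDAC2 were followed at the transcript level in Panc10.05, an established line of human pancreatic cancer cells, and in cells derived from it that had acquired resistance to indisulam. The 10 genes were taken by symbol: BCL2L1, MCL1, BCL2 and BCL2L2 (anti-apoptotic), BAX, BAK1 and BOK (pore-forming), BCL2L12 and BCL2L13 (divergent homologues), and VDAC2. They are 10 of 60675 gene identifiers counted, and all 10 were among the 16661 genes with enough reads to be tested. Polyadenylated RNA from 8 libraries was counted, 2 in each of 4 groups. Parental cells were left untreated or were given 2 µM indisulam for 18 h. Resistant cells, obtained by culture in rising concentrations of the drug, were either kept on indisulam at the same dose or were untreated, which in the study was a drug holiday of a week. All 4 groups descend from a single cell line, and the 2 libraries of a group are described by the study as technical replicates, so that p-values measure the spread between these libraries only. The growth and treatment notes in the labels name A549, a lung cancer line, but every title and cell line entry gives Panc10.05, which was followed here.

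BCL-2 family proteins decide at the mitochondrial outer membrane whether a cell undergoes apoptosis. The anti-apoptotic members bind and restrain BAX and BAK, the effectors that otherwise assemble into pores and release cytochrome c, and the small BH3-only proteins free or activate these effectors. VDAC2 is an outer membrane channel that holds BAK at the mitochondrion and also takes part in the membrane localisation of BAX. Indisulam is a molecular glue: it joins RBM39, a splicing factor, to the ligase receptor DCAF15, after which RBM39 is degraded.

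Transcripts of BAX, VDAC2 and BCL2L13 were lower in resistant than in parental cells both off and on drug, as given below, and their start sites are shown together with that of BCL2L1, the gene for BCL-xL. Each sequence is a RefSeq promoter window on GRCh38.p14, from 250 bases before to 50 after an annotated start, written in the direction of transcription. Capitals mark matches, on either strand, to GGGCGG (the GC box), to CCAAT (the box of that name), to TATAAA (the TATA box) and to CACGTG (an E-box that reads alike on both strands). A match on the opposite strand appears as its reverse complement, and no matches overlapped in these windows. Windows were found for 8 of the 10 genes, and where a gene had several, the window with the most matches is given. In GENCODE 44 (GRCh38) the genes span chromosome 19 from 48954815 to 48961798 for BAX, chromosome 10 from 75210154 to 75231448 for VDAC2, chromosome 22 from 17628855 to 17730855 for BCL2L13 and chromosome 20 from 31664452 to 31723989 for BCL2L1. The BAX window lies at chr19:48954625-48954924 (plus strand), that of VDAC2 at chr10:75210546-75210845 (plus strand), that of BCL2L13 at chr22:17638507-17638806 (plus strand) and that of BCL2L1 at chr20:31723914-31724213 (minus strand).
BAX: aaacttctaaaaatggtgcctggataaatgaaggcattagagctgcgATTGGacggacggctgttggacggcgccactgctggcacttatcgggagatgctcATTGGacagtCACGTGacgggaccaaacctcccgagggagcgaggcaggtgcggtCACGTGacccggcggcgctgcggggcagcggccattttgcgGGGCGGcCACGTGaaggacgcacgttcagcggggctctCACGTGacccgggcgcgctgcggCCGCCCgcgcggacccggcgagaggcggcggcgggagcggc
VDAC2: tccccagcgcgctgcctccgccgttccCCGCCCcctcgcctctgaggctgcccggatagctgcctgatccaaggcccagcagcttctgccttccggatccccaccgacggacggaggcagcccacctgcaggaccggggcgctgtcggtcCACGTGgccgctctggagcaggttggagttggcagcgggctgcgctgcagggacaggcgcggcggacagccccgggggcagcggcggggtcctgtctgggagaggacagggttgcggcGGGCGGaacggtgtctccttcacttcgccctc
BCL2L13: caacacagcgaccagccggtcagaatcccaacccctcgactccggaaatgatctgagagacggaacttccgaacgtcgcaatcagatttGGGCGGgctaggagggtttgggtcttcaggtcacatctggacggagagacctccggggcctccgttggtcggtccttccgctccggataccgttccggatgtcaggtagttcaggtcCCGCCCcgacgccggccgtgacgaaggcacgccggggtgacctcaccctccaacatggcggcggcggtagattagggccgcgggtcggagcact
BCL2L1: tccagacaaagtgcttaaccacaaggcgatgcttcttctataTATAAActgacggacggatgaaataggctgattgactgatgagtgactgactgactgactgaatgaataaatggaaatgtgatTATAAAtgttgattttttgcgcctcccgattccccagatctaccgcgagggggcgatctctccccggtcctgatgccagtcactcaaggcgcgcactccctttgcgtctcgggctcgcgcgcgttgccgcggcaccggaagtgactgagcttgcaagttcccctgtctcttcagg
The BAX window held 4 CACGTG and 2 CCAAT matches, and the VDAC2 window held 1 CACGTG match. CACGTG occurred in 7.26% of 35116 promoter windows and in 2 of the 13 of these genes. The BCL2L1 window shown held 2 TATAAA matches, a motif of 11.5% of all windows. Neither match lies close to the annotated start. The other window of BCL2L1 held no such match, nor did any window found for another member. Of the 13 windows of the 8 genes, 8 held GGGCGG, a motif of 45% of all windows, and 3 held CCAAT (those of BAX, BAK1 and BOK), against 34.6% of all. These matches describe the letters in a window and are not evidence of binding. MCL1 and BCL2L2 had no entry in the table.

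Libraries held 65266253 to 108002436 reads assigned to genes, and the libraries of a group correlated at r = 0.996 to 0.998 across genes. Levels are given as CPM, counts per 1000000 reads of the TMM-scaled library, and log2 fold changes (log2FC) with their standard error come from edgeR's quasi-likelihood test with Benjamini-Hochberg adjustment over all 16661 genes. A gene was called at an adjusted p under 0.05. RBM39 transcripts averaged 334 CPM in untreated and 724 CPM in treated parental cells, and 305 and 584 CPM in resistant cells off and on drug. They were thus higher on drug in both lines (log2FC 1.11 ± 0.03 and 0.94 ± 0.03). The study reports loss of RBM39 protein on drug. Transcripts do not measure that loss, and their rise is no check of the labels. All 8 epithelial markers examined, including KRT7, KRT19 and EPCAM, were detected. Their summed level was 6308 to 6614 CPM in parental and 10918 to 12691 CPM in resistant libraries. Most of the sum was KRT8 (2333 to 4960 CPM over all libraries), KRT18 (2123 to 4583 CPM) and KRT7 (757 to 1683 CPM). EPCAM ran only from 401 to 452 CPM, so that the sum does not stand for each marker. The 4 fibroblast markers summed to 1.34 to 1.88 CPM in all libraries but those of resistant cells on drug (4.09 and 4.13 CPM), nearly all of it COL1A1 (99 to 374 reads), while COL1A2, COL3A1 and PDGFRB had 0 to 4 reads. Of the 3 blood markers PTPRC and CD3E were at 0 reads and CD68 had 1 to 14, and of the 3 endothelial markers VWF had 13 to 33 reads and PECAM1 and CDH5 had 0 to 8. The part of these shifts in the differences between lines below was not tested. In bulk RNA, fewer cells of a kind and less RNA per cell cannot be told apart.

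Levels of different genes were compared per kilobase of merged exons. In untreated parental cells BCL2L1 and VDAC2 stood highest, at 98.2 ± 0.47 and 90.6 ± 1.45 CPM per kb (SD, n = 2). They were followed by MCL1 (61.1 ± 0.50), BAX (49.9 ± 0.41), BAK1 (26.3 ± 0.21), BOK (19.3 ± 0.11), BCL2L12 (17.7 ± 0.31), BCL2L13 (16.3 ± 0.089) and BCL2L2 (9.04 ± 0.084). BCL2 itself was the lowest, at 0.458 ± 0.0031 CPM per kb. The order depended on the length used: with the MANE Select transcript of each gene, VDAC2 (168), BAX (162) and BCL2L1 (160) were nearly level and BCL2L12 (47.1) stood above BAK1 (26.8), whereas BCL2 remained the lowest at 0.839 CPM per kb.

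**Figure D1:**
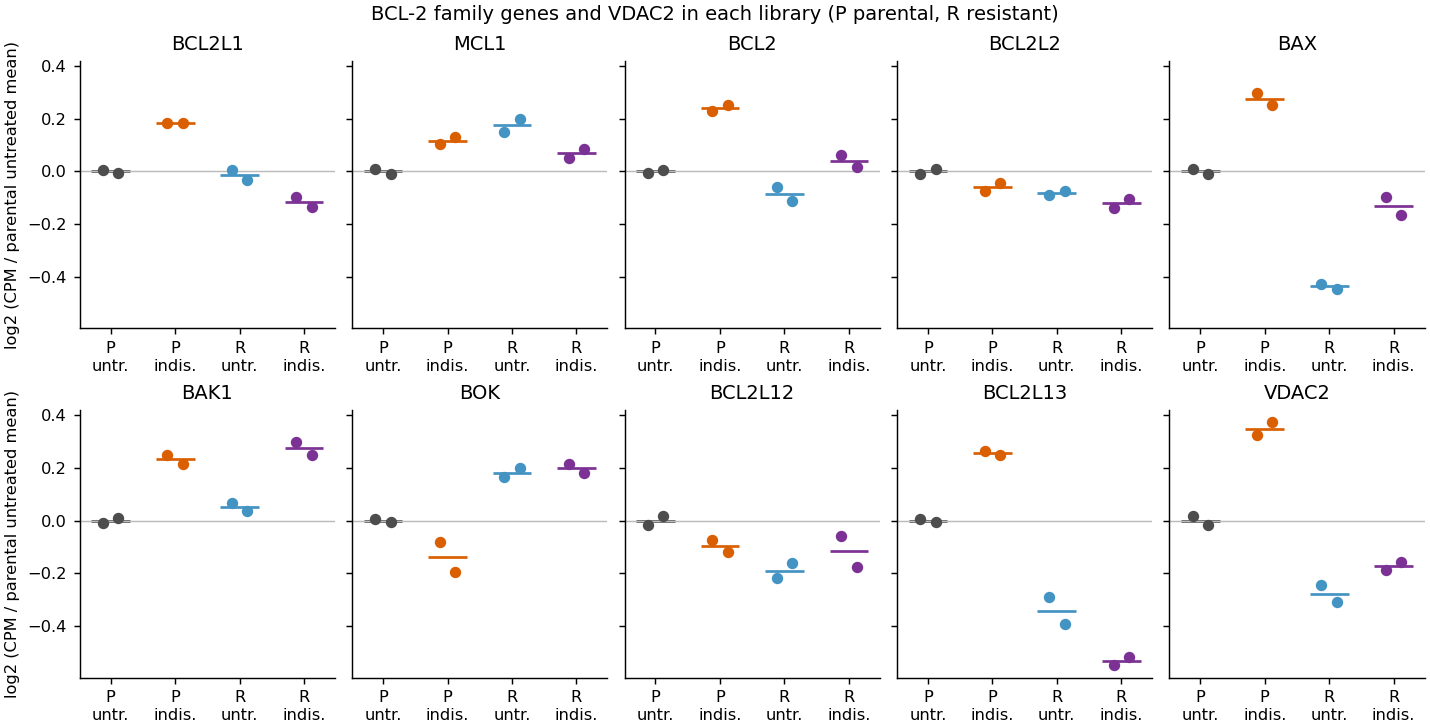
Each panel plots, for 1 gene, log2 of its CPM over the mean of untreated parental cells (y axis, the same in all panels) in the 8 libraries, by group on the x axis (P parental, R resistant), with points for libraries and a line for the group mean. BAX, BCL2L13 and VDAC2 lie lower in both resistant groups than in both parental groups, BAK1 follows the drug in both lines, and BCL2L2 stays within a narrow range.

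BCL2L1 encodes BCL-xL (with the shorter BCL-xS from another splice form), which restrains both BAX and BAK. Its levels were 413.5 and 411 CPM in untreated parental libraries, 468 and 468 CPM in treated parental, 413 and 403 CPM in resistant off drug, and 385 and 375 CPM in resistant on drug. The treated parental libraries were the highest of all, the resistant ones on drug were the lowest, and the untreated libraries of the lines overlapped. BCL2L1 thus rose with indisulam in parental cells (log2FC 0.18 ± 0.03, adjusted p = 4.1e-06) and fell with it in resistant cells (-0.10 ± 0.03, adjusted p = 0.0033). This fall did not pass with scaling to library totals (-0.05, adjusted p = 0.088) or without resistant indisulam replicate 2 (-0.08, adjusted p = 0.058). Off drug the lines did not differ in the test (-0.01 ± 0.03, adjusted p = 0.69), and on drug the level was lower in the resistant line (-0.30 ± 0.03, adjusted p = 9.8e-10). In this gene-level count the splice forms are summed.

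MCL1, a short-lived anti-apoptotic protein that holds BAK in particular, ran between 378 and 382 CPM in untreated parental libraries, 408 and 416 CPM in treated parental, 422 and 436 CPM in resistant off drug, and 394 and 403 CPM in resistant on drug. Every group lay above untreated parental cells, and the resistant libraries off drug were the highest. MCL1 rose with indisulam in parental cells (log2FC 0.12 ± 0.03, adjusted p = 0.00097) and fell in resistant cells (-0.11 ± 0.03, adjusted p = 0.0031). Neither change passed with scaling to library totals (0.05 and -0.06, adjusted p = 0.12 and 0.085), and the rise was also lost without parental indisulam replicate 2 (0.08, adjusted p = 0.055). Off drug the resistant line was higher (0.17 ± 0.03, adjusted p = 8.6e-06), while on drug the difference did not pass (-0.05 ± 0.03, adjusted p = 0.14). In the order of the 4 group means, treated parental cells did not differ in the test from either of their neighbours, resistant cells on drug (adjusted p = 0.14) and resistant cells off drug (adjusted p = 0.071).

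BCL2, the founding member of the family, was the least abundant and had 347 to 629 reads a library. Its levels were 5.75 and 5.80 CPM in untreated parental, 6.76 and 6.87 CPM in treated parental, 5.55 and 5.34 CPM in resistant off drug and 6.02 and 5.84 CPM in resistant on drug. The treated parental libraries stood above the others, which spanned a narrow range. BCL2 rose in treated parental cells (log2FC 0.24 ± 0.07, adjusted p = 0.0039), but not past the threshold in resistant cells (0.12 ± 0.07, adjusted p = 0.18). On drug it was lower in resistant than in parental cells (-0.20 ± 0.07, adjusted p = 0.013), a call lost with the DESeq2 Wald test (adjusted p = 0.11), with library totals (adjusted p = 0.15) and without any one of parental indisulam replicate 1 (-0.19, adjusted p = 0.060), parental indisulam replicate 2 (-0.17, adjusted p = 0.11) and resistant indisulam replicate 2 (-0.17, adjusted p = 0.10).

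BCL2L2, the gene for BCL-w, moved least, with group means from 40.2 to 43.7 CPM and a highest to lowest ratio of 1.09. None of its neighbours in the order of the groups differed in the test. It was lower in resistant cells on drug than in untreated parental cells, the ends of that order (log2FC -0.12 ± 0.03, adjusted p = 0.0034). A second call, lower in resistant cells off drug (log2FC -0.08 ± 0.03, adjusted p = 0.042), was lost with DESeq2 size factors (adjusted p = 0.096), the Wald test (adjusted p = 0.32) and without each of the 4 libraries compared in turn (adjusted p = 0.10 to 0.21, log2FC -0.09 to -0.07).

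Together, BCL2L1 and MCL1 made up nearly all of the length-scaled sum of the 4 anti-apoptotic genes. BCL2L1 took 58.2% ± 0.026 of the sum in untreated and 59.6% ± 0.30 in treated parental cells, against 55.5% ± 0.98 and 55.4% ± 0.88 in resistant cells off and on drug (SD, n = 2). MCL1 took 36.2% ± 0.11, 35.4% ± 0.26, 39.4% ± 0.94 and 39.2% ± 0.78 in the same order. The share of BCL2L1 was thus lower in all 4 resistant libraries than in the 4 parental ones, and that of MCL1 higher. The shares were not tested. Between 2 groups, an exact permutation test of 2 against 2 libraries cannot go below p = 0.33. Pooled over drug, the libraries of a line would still be technical replicates of that line. BCL2L2 contributed 4.64% to 5.36% and BCL2 0.247% to 0.289% on average in a group. Set against BAX plus BAK1, the anti-apoptotic sum was 2.21 ± 0.0058 times as high in untreated parental cells, 2.05 ± 0.051 in treated parental cells, 2.73 ± 0.030 in resistant cells off drug and 2.11 ± 0.054 in resistant cells on drug. With MANE Select lengths the same ratios were 1.42, 1.31, 1.89 and 1.44, in that order of groups. Resistant cells off drug were highest and treated parental cells lowest under both lengths, while untreated parental cells and resistant cells on drug changed places. A ratio of transcripts says nothing of the proteins, which were not measured here.

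**Figure D2:**
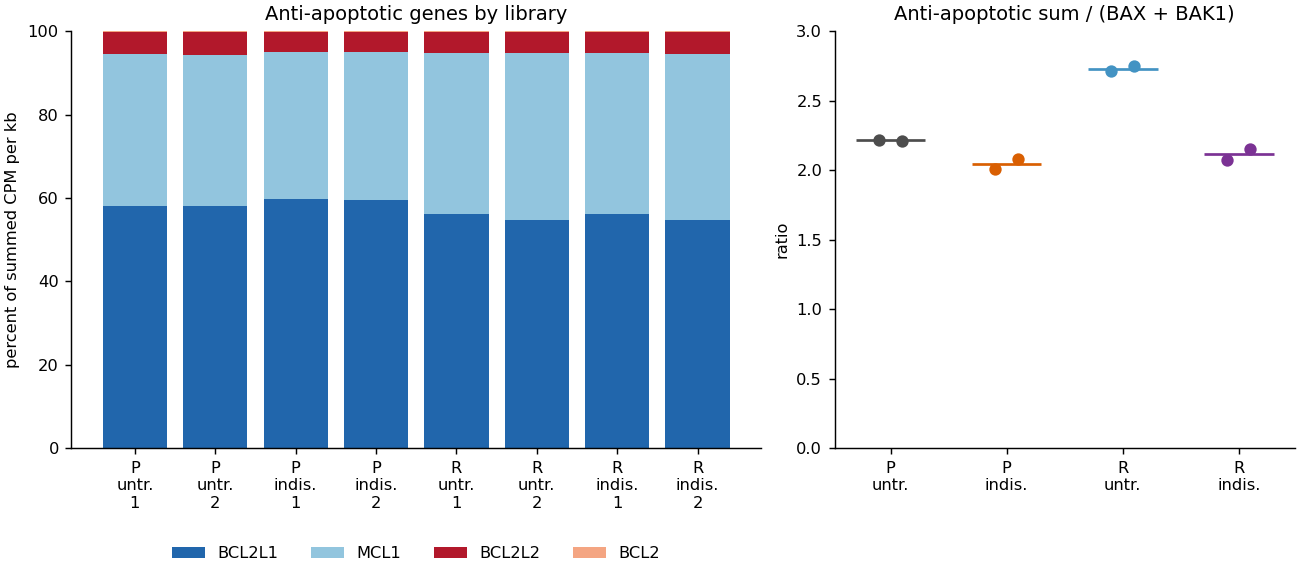
The left panel stacks the share (percent of summed CPM per kb of merged exons, y axis) of the 4 anti-apoptotic genes in each of the 8 libraries (x axis), where BCL2 is too small to be seen. The right panel plots the ratio of that sum to BAX plus BAK1 in each library (points) with the group mean (line), which was 2.73 in resistant cells off drug and 2.05 to 2.21 in the other groups.

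Among the effectors, BAX, which resides in the cytosol until it is activated and then inserts into the outer membrane, separated the groups most. It was at 129.9 and 128 CPM in untreated parental libraries, 159 and 154 CPM in treated parental, 96.0 and 94.9 CPM in resistant off drug, and 121 and 115 CPM in resistant on drug. No groups overlapped, and the 4 resistant libraries lay below the 4 parental ones. Indisulam raised BAX by nearly the same amount in each line (log2FC 0.28 ± 0.03, adjusted p = 3.8e-08, in parental and 0.30 ± 0.03, adjusted p = 1.7e-08, in resistant cells). The resistant line was lower by nearly the same amount off drug (-0.44 ± 0.03, adjusted p = 9.1e-12) and on drug (-0.41 ± 0.03, adjusted p = 2.0e-11). All neighbours in the order of the groups differed, including resistant cells on drug against untreated parental cells (118 and 129 CPM, adjusted p = 0.00047).

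BAK1, the effector that is anchored in the mitochondrial membrane, was at 57.7 and 58.4 CPM in untreated parental, 69.1 and 67.4 CPM in treated parental, 60.9 and 59.6 CPM in resistant off drug and 71.4 and 69.1 CPM in resistant on drug. The 4 libraries on drug lay above the 4 off drug, whichever the line. It rose by 0.23 ± 0.03 in parental (adjusted p = 1.3e-06) and by 0.22 ± 0.03 log2 units in resistant cells (adjusted p = 4.8e-06). The lines differed past the threshold neither off drug (0.05 ± 0.03, adjusted p = 0.16) nor on drug (0.04 ± 0.03, adjusted p = 0.26), although the difference on drug was called with library totals (0.13, adjusted p = 0.0012).

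BOK, a pore-forming protein that acts largely without restraint by the anti-apoptotic members, went the other way. Its levels were 52.1 and 51.6 CPM in untreated parental, 49.0 and 45.2 CPM in treated parental, 58.1 and 59.5 CPM in resistant off drug and 60.3 and 58.7 CPM in resistant on drug. All resistant libraries lay above all parental ones, and the resistant groups overlapped. BOK fell in treated parental cells (log2FC -0.14 ± 0.04, adjusted p = 0.0023), with no change past the threshold in resistant cells (0.02 ± 0.04, adjusted p = 0.75). It was higher in resistant cells off drug (0.18 ± 0.04, adjusted p = 0.00013) and on drug (0.34 ± 0.04, adjusted p = 2.1e-08).

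BCL2L13, also named BCL-Rambo, an outer membrane protein known as a mitophagy receptor, had the widest range of the 10 genes, with a highest to lowest ratio of 1.73. It was at 125.5 and 125 CPM in untreated parental, 150.2 and 149 CPM in treated parental, 102 and 95.2 CPM in resistant off drug and 85.4 and 87.4 CPM in resistant on drug. No groups overlapped, and the drug moved the lines apart. BCL2L13 rose with indisulam in parental cells (log2FC 0.26 ± 0.03, adjusted p = 2.4e-07) and fell in resistant cells (-0.19 ± 0.03, adjusted p = 3.5e-05). The resistant line was lower off drug (-0.34 ± 0.03, adjusted p = 1.9e-09) and more so on drug (-0.79 ± 0.03, adjusted p = 3.1e-16). Over the comparisons of drug and of line, the last was the only member difference that passed a test against a change of at least 0.5 log2 units.

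BCL2L12, a homologue found in cytoplasm and nucleus, differed little, at 49.5 and 50.7 CPM in untreated parental, 47.6 and 46.2 CPM in treated parental, 43.0 and 44.8 CPM in resistant off drug and 48.1 and 44.4 CPM in resistant on drug. Resistant libraries on drug overlapped with those off drug and with the treated parental ones. It was lower in resistant cells off drug (log2FC -0.19 ± 0.04, adjusted p = 0.00016) and in treated parental cells (-0.10 ± 0.04, adjusted p = 0.034), the second being lost with the DESeq2 Wald test (adjusted p = 0.18), without parental untreated replicate 1 (-0.11, adjusted p = 0.064), parental untreated replicate 2 (-0.08, adjusted p = 0.21) or parental indisulam replicate 2 (-0.09, adjusted p = 0.089). BCL2L12 shares 25.9% of its exon bases with IRF3 on the opposite strand, and IRF3 held 61.4% to 67.9% of the reads of the pair. IRF3 also fell in treated parental cells (-0.40 ± 0.04), and since the strand setting of the counting is not stated, the reads of this pair may be divided uncertainly. The opposite-strand ABALON, which covers 41.3% of the exon bases of BCL2L1, had 11 to 26 reads. That count does not show how reads in the shared bases were assigned. PPP1R3E, opposite BCL2L2, held 14.3% to 20.5% of that pair's reads and was also lower in resistant cells off drug (-0.40 ± 0.08). Of the related genes, BCL2L11, BAD and HTRA2 overlap MIR4435-2HG (26.2% to 38.2% of the pair's reads), GPR137 (62.8% to 73.2%) and AUP1 (86.4% to 88.3%).

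VDAC2 was at 257 and 251 CPM in untreated parental, 318 and 329 CPM in treated parental, 214 and 205 CPM in resistant off drug and 223 and 228 CPM in resistant on drug. As with BAX, no groups overlapped and the resistant libraries lay below the parental ones. VDAC2 rose with the drug in parental cells (log2FC 0.35 ± 0.03, adjusted p = 8.7e-10). In resistant cells it rose less (0.11 ± 0.03, adjusted p = 0.0052), and this rise was lost without resistant untreated replicate 2 (0.07, adjusted p = 0.11) or resistant indisulam replicate 2 (0.09, adjusted p = 0.074). The resistant line was lower off drug (-0.28 ± 0.03, adjusted p = 2.0e-08) and on drug (-0.52 ± 0.03, adjusted p = 1.6e-13).

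Indisulam in parental cells changed 9 of the 10 genes, where 58.2% of all genes tested were called. Of these, 7 were higher (31.6% of all genes) and 2, BOK and BCL2L12, were lower (26.6% of all genes). BCL2L2 alone did not pass. Changes were small, with a median log2FC of 0.21 over the members beside 0.01 over all genes. Regardless of sign, the median change was 0.21 over the members and 0.23 over all genes. No member reached 0.5 log2 units, where 2627 of the 16661 genes tested were called past it. Anti-apoptotic and pore-forming genes rose side by side, 3 of 4 and 2 of 3 respectively.

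In resistant cells 6 of the 10 genes were called between the libraries on and off drug, against 50.7% of all genes tested. BAX, BAK1 and VDAC2 were higher on drug (24.9% of all genes) and BCL2L1, MCL1 and BCL2L13 were lower (25.8% of all genes), and the median over the members was 0.04 beside 0.01 over all genes. No anti-apoptotic gene was called higher, whereas 2 of 3 pore-forming genes were. The untreated group here had been exposed to the drug before, so that the contrast is not the same as that in parental cells.

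**Figure D3:**
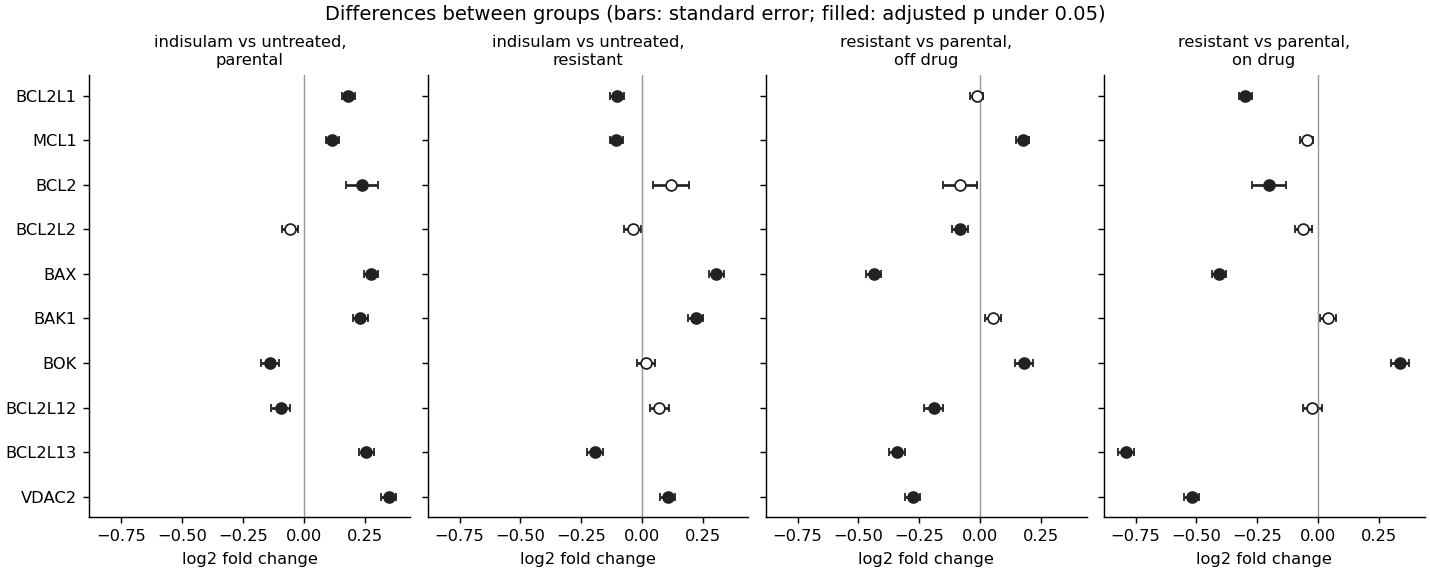
The 4 panels plot the log2 fold change (x axis) of each gene (y axis) for indisulam against untreated in parental and resistant cells and for resistant against parental cells off and on drug, with bars of 1 standard error and filled points for adjusted p under 0.05. Parental changes with drug reach from -0.14 (BOK) to 0.35 (VDAC2), and the widest difference is that of BCL2L13 between the lines on drug, at -0.79.

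Off drug, 7 of the 10 genes were called between resistant and parental cells, where 60.1% of all genes tested were. MCL1 and BOK were higher in resistant cells (30.3% of all genes), and BCL2L2, BAX, BCL2L12, BCL2L13 and VDAC2 were lower (29.9% of all genes). The median over the members was -0.08 and that over all genes -0.02. On drug, 6 of the 10 genes were called, against 69.5% of all genes, a share below the background. BOK was the only one higher (34.6% of all genes), and BCL2L1, BCL2, BAX, BCL2L13 and VDAC2 were lower (34.9% of all genes), with a median of -0.13 beside 0.00 over all genes. The members called past 0.5 log2 units on drug were BCL2L13 and VDAC2, where 5281 of the 16661 genes tested were. Regardless of sign, the median difference on drug was 0.25 over the members and 0.35 over all genes. Comparisons with a group in common, such as the drug response of parental cells and the difference between lines off drug, share those libraries and are not independent.

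The difference between the drug responses of the lines was tested directly as an interaction, in which 50.1% of all genes were called. For 6 of the 10 genes it passed the threshold, 2 higher (22.7% of all genes) and 4 lower (27.5% of all genes). The response was lower in resistant than in parental cells for BCL2L13 (-0.45 ± 0.05 log2 units, adjusted p = 3.6e-08), BCL2L1 (-0.29 ± 0.04, adjusted p = 2.1e-06), VDAC2 (-0.24 ± 0.04, adjusted p = 4.3e-05) and MCL1 (-0.22 ± 0.04, adjusted p = 6.1e-05). BCL2L13, BCL2L1 and MCL1 were called in opposite directions in the lines, while VDAC2 rose in both. The response was higher in resistant cells for BCL2L12 (0.17 ± 0.05, adjusted p = 0.014) and BOK (0.15 ± 0.05, adjusted p = 0.016), calls that the DESeq2 Wald test did not make (adjusted p = 0.11 and 0.12). For BAX and BAK1 the difference was 0.03 ± 0.04 and -0.01 ± 0.04 (adjusted p = 0.60 and 0.84), and with library totals that of BAX was called (0.14, adjusted p = 0.0077). Scaling to library totals moved the median of all genes in this contrast by 0.12 log2 units and the share of higher among called genes from 45.2% to 65.8%.

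**Figure D4:**
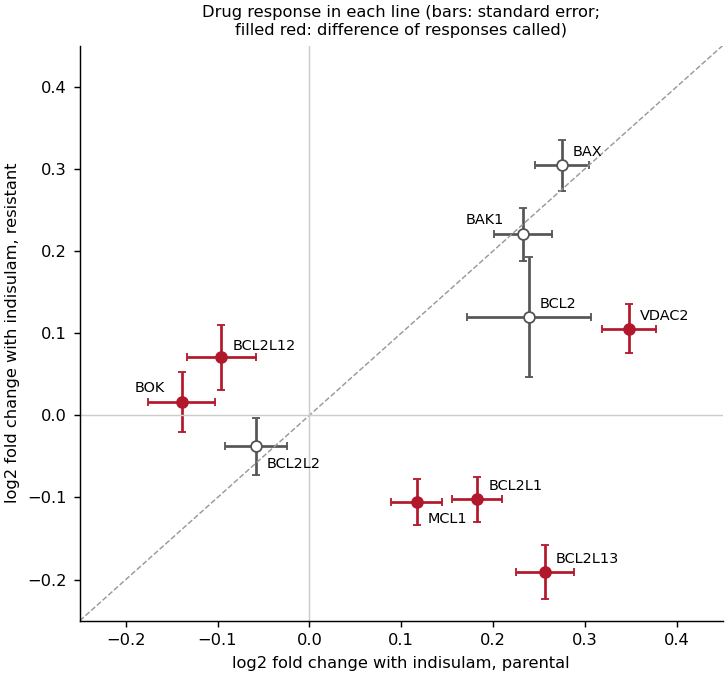
The log2 fold change with indisulam in parental cells (x axis) is plotted against that in resistant cells (y axis) for the 10 genes, with bars of 1 standard error, a dashed line of equal response, and red filled points where the difference of the responses was called. BAX and BAK1 lie near the dashed line, VDAC2 lies below it, and BCL2L13, BCL2L1 and MCL1 lie where the change was positive in parental and negative in resistant cells.

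How the members moved together was described by Pearson's r of log2 CPM over the 8 libraries, which fall into 4 groups and share their scaling. BAX ran closest with VDAC2 (r = 0.945), BCL2L1 ran with BCL2L13 (r = 0.921), and BOK ran against BCL2L13 (r = -0.958) and VDAC2 (r = -0.950). Among 8876 protein-coding genes, the patterns most like that of BCL2L1 were those of THG1L (r = 0.993), SERP1 (0.992) and UQCRFS1 (0.992). For MCL1 they were SEC22B (r = 0.973), ATP2B1 (0.971) and SCAF8 (0.961). CEP85, SLC19A2 and WBP2 lay closest to BAX (r = 0.996, 0.996 and 0.995), and AGPAT1, BTN2A1 and KDELR1 to BAK1 (r = 0.991, 0.990 and 0.988). With so few distinct groups, high coefficients are common and are given as a description.

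Around these 10 genes, 28 genes of the same pathway were examined, of which 25 had enough reads; BCL2A1, BCL2L10 and BCL2L14 had 0 to 3 reads a library. With indisulam 17 of the 25 were called in parental cells (13 higher, 4 lower), beside 58.2% of all genes, and 16 in resistant cells (7 higher, 9 lower), beside 50.7%. Between the lines 16 were called off drug (12 higher in resistant cells, 4 lower), beside 60.1% of all genes, and 17 on drug (10 higher, 7 lower), beside 69.5%. The interaction was called for 12 (3 higher, 9 lower), beside 50.1%. On drug and in the interaction the share was thus slightly below that of all genes.

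The paralogues of VDAC2 were each called in the drug responses of both lines. VDAC1, which carries metabolites across the outer membrane, was higher in resistant cells off drug (log2FC 0.31 ± 0.03, adjusted p = 8.4e-10) and not different in the test on drug (-0.05 ± 0.03, adjusted p = 0.10). It rose with indisulam in parental cells (0.23 ± 0.03) and fell in resistant cells (-0.14 ± 0.03). VDAC3 also rose in parental and fell in resistant cells (0.12 ± 0.03 and -0.11 ± 0.03), and like VDAC2 it was lower in resistant cells off drug (-0.08 ± 0.03, adjusted p = 0.029) and on drug (-0.31 ± 0.03, adjusted p = 8.6e-09). The rise of VDAC3 was lost without parental indisulam replicate 2 (0.07, adjusted p = 0.15), the fall without resistant untreated replicate 1 (-0.07, adjusted p = 0.15) or resistant indisulam replicate 1 (-0.09, adjusted p = 0.064), both with library totals, and the difference off drug without parental untreated replicate 1 (-0.08, adjusted p = 0.13), parental untreated replicate 2 (-0.09, adjusted p = 0.11) or resistant untreated replicate 2 (-0.04, adjusted p = 0.41). BCL2L15, a homologue with only 2 to 24 reads a library, was called higher with the drug in both lines (0.86 ± 0.35 and 1.71 ± 0.50). Its parental call was lost without parental untreated replicate 1 (0.93, adjusted p = 0.097), parental untreated replicate 2 (0.79, adjusted p = 0.15) or parental indisulam replicate 2 (0.59, adjusted p = 0.32), and its resistant call without resistant untreated replicate 2 (1.16, adjusted p = 0.090) or resistant indisulam replicate 1 (1.425, adjusted p = 0.060).

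Of the 8 BH3-only genes, 7 were called higher in resistant cells off drug and none lower, where 30.3% and 29.9% of all genes were. On drug 7 were higher and 1, BCL2L11, the gene for BIM, was lower (-0.15 ± 0.05), where 34.6% and 34.9% of all genes were. The call of BCL2L11 was lost with library totals (-0.06, adjusted p = 0.22) and without parental indisulam replicate 2 (-0.12, adjusted p = 0.073) or resistant indisulam replicate 1 (-0.09, adjusted p = 0.11). The median log2FC of the 8 genes was 0.50 off and 0.46 on drug, beside -0.02 and 0.00 over all genes. Not every higher call held in each run with 1 library left out. The smallest higher differences were those of BCL2L11 off drug and BAD on drug, with log2FC of 0.13 to 0.15 and 0.12 to 0.16 in those runs. BMF had the largest difference, at 1.76 to 2.56 CPM in parental and 4.75 to 6.56 CPM in resistant libraries (log2FC 1.44 ± 0.10 both off and on drug). PMAIP1, the gene for NOXA, which binds MCL1, was at 27.6 to 31.9 CPM in parental and 56.3 to 63.1 CPM in resistant libraries (0.89 ± 0.04 off and 1.12 ± 0.04 on drug). The drug itself moved PMAIP1 by -0.15 ± 0.04 in parental cells (adjusted p = 0.0050, and 0.058 without parental untreated replicate 1) and by 0.08 ± 0.04 in resistant cells (adjusted p = 0.085). With the drug, 2 of the 8 genes were called higher and 4 lower in parental cells, where 31.6% and 26.6% of all genes were. In resistant cells 2 were higher and 3 lower, where 24.9% and 25.8% of all genes were. The largest called changes with the drug were those of BBC3, the gene for PUMA, which fell in parental cells (-0.40 ± 0.09), and of HRK, which rose in resistant cells (0.63 ± 0.12, from 2.26 to 3.48 CPM on average). BID fell in both lines (-0.25 ± 0.04 in parental and -0.58 ± 0.04 in resistant cells).

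Past the pore, CYCS, which encodes cytochrome c, was called in the same directions as BCL2L13. It rose in treated parental cells (0.22 ± 0.03), fell in resistant cells on drug (-0.23 ± 0.03) and was lower in the resistant line off drug (-0.28 ± 0.03) and on drug (-0.73 ± 0.03, adjusted p = 6.7e-17). ENDOG, a mitochondrial nuclease, was lower in resistant cells off drug (-0.47 ± 0.05) and on drug (-0.58 ± 0.05). CASP9 was higher in them off drug (0.44 ± 0.06) and on drug (0.50 ± 0.06). Of the 10 genes past the pore, 4 were called higher and 2 lower in resistant cells off drug, where 30.3% and 29.9% of all genes were. On drug 3 were higher and 4 lower, where 34.6% and 34.9% of all genes were. APAF1, the scaffold of the apoptosome, rose by 0.34 ± 0.05 in treated parental cells and by 0.49 ± 0.05 in resistant cells on drug (adjusted p = 1.8e-08). DIABLO, whose protein SMAC binds inhibitors of apoptosis, rose in resistant cells on drug (0.61 ± 0.15, adjusted p = 0.0016), from 1.31 to 1.99 CPM on average. This gene had only 90 to 196 reads a library, before scaling for depth, and overlaps others.

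MARCHF5, a mitochondrial ubiquitin ligase that acts on members of the family, was the only turnover gene called in both lines and in both comparisons between them. It was at 79.4 and 80.5 CPM in untreated parental, 105 and 103 CPM in treated parental, 59.0 and 58.7 CPM in resistant off drug, and 72.0 and 73.8 CPM in resistant on drug. Like BAX, it rose with the drug in each line (0.38 ± 0.03 and 0.31 ± 0.03) and was lower in resistant cells off drug (-0.44 ± 0.03) and on drug (-0.51 ± 0.03). The ligases HUWE1 and FBXW7 and the deubiquitinase USP9X, which control MCL1 stability, were not called between the lines. With indisulam, USP9X was called higher in parental cells (0.13 ± 0.05, adjusted p = 0.035). Its log2FC there ran from 0.04 to 0.17 with 1 library left out. USP9X was not called in resistant cells, and HUWE1 and FBXW7 were called with the drug in neither line.

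**Figure D5:**
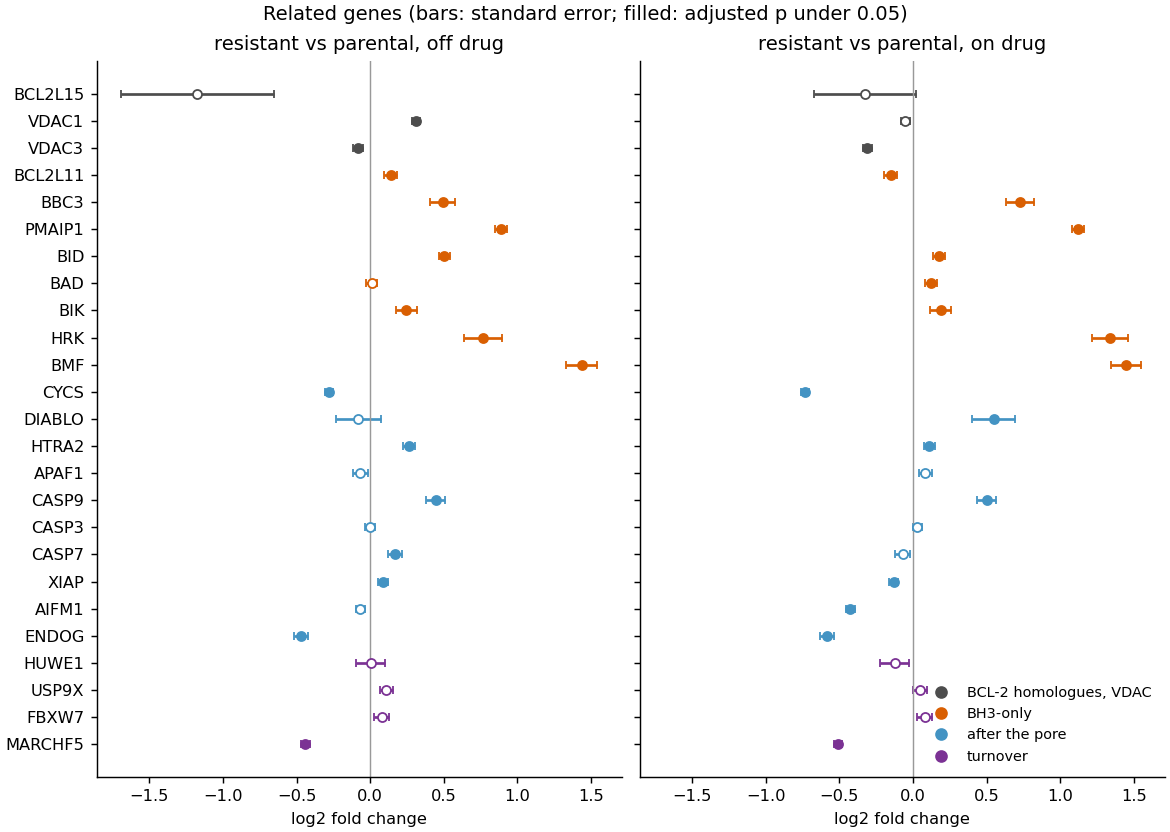
The log2 fold change of resistant against parental cells (x axis) is plotted for the 25 related genes (y axis) off drug and on drug, with bars of 1 standard error, colours for the kind of gene and filled points for adjusted p under 0.05. The BH3-only genes lie to the right with the exception of BCL2L11 on drug, led by BMF at 1.44, whereas CYCS and MARCHF5 lie to the left.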

How the data were processed

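RNA from Panc10.05 parental and indisulam-resistant cells was sequenced as stranded polyadenylated libraries. The authors deposited raw read counts per Ensembl gene; per the submitters' processing notes the tools were HISAT2 (2.2.1), Picard and HTSeq and the build GRCh38. The annotation release and the strand setting of the counting are not given in the sources used here. Lines of reads not assigned to a gene, 37.9% to 44.9% of the totals, stayed out of library sizes and tests. Of the 60675 identifiers, 60419 were matched to GENCODE 44 for symbols and exon lengths.

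Counts were filtered (filterByExpr), TMM-scaled and fitted with edgeR (4.0.16, R 4.3.3) quasi-likelihood models (robust) over all 8 libraries with 4 group means, leaving 4 residual degrees of freedom. Groups came from the titles. The fit was tested on simulated data. Alternatives were DESeq2 (1.42.0) size factors and its Wald test, library totals, other count filters, fits of only the groups compared, a test against 0.5 log2 units, an adjusted p under 0.01, MANE Select lengths, a replicate block and leaving out each library. The fit of 2 further group contrasts and the ratio to BAX plus BAK1 were added after seeing the data. Same-numbered libraries did not deviate together (r = -0.058 to 0.027 over 6 pairs of groups). Libraries of a group differed by more than sampling noise (mean chi-square per gene 1.95 to 5.80). Figures were drawn with matplotlib.

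The 10 members and the lists were chosen with earlier results of these data known. All members are named; of the related genes, the gene of each list with the largest called change in a comparison, and PMAIP1, VDAC1 and VDAC3 in all; the 3 genes of most similar pattern for BCL2L1, MCL1, BAX and BAK1. Genes named beyond these were chosen after their values were seen. Protein sequences were not used here.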

Additional observations from a re-analysis of the deposited data

Results flagged for a closer look

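The drug response differed between the lines, by the interaction test, in 6 members and in 7 of the related genes named. The response was lower in resistant than in parental cells for BCL2L13 (-0.45 log2 units), BCL2L1 (-0.29), VDAC2 (-0.24) and MCL1 (-0.22), and higher for BCL2L12 (0.17) and BOK (0.15). Among the related genes it was lower for CYCS (-0.45), VDAC1 (-0.36), BCL2L11 (-0.29) and VDAC3 (-0.23), and higher for DIABLO (0.63), HRK (0.57) and PMAIP1 (0.23). All 13 had an adjusted p of at most 0.016 in edgeR's quasi-likelihood test, in a contrast in which 50.1% of all genes were called. Those of HRK and DIABLO, which had few reads, were not called with the DESeq2 Wald test (adjusted p = 0.10 and 0.13) or without parental untreated replicate 1 (0.41 and 0.45, adjusted p = 0.12 and 0.12) or parental indisulam replicate 2 (0.48 and 0.51, adjusted p = 0.055 and 0.066), and that of DIABLO was also lost without resistant untreated replicate 1 (0.57, adjusted p = 0.0502) or resistant indisulam replicate 2 (0.61, adjusted p = 0.054). With 2 libraries a group, no group was examined for a single library that stood apart.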

How the results depend on the processing

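No called member value changed direction under any alternative run. The replicate block kept the call status of all 50 member values, with 9, 6, 7, 6 and 6 members called (in the order parental drug response, resistant drug response, lines off drug, lines on drug, interaction) and 16, 16, 17, 17 and 12 related genes. Against a change of 0.5 log2 units, the test called 0, 0, 0, 1 and 0 members and 0, 0, 3, 5 and 0 related genes, where the test against no change called 9, 6, 7, 6 and 6 and 17, 16, 16, 17 and 12. Scaling to library totals called 9, 5, 7, 6 and 8 members, with 5 calls gained and 4 lost: the gains were BCL2L2 (-0.12) in parental cells, BCL2L12 (0.12) in resistant cells, BAK1 (0.13) between lines on drug, and BCL2L2 (0.14) and BAX (0.14) in the interaction. A minimum mean of 1 CPM called 9, 7, 7, 6 and 7, with 4 of these gained and 2 lost (MCL1 in parental cells, BCL2 between lines on drug). Fitting only the groups compared gained BCL2L2 in parental cells (-0.08). Library totals also called 11 related genes in the parental drug response, and moved the share of higher among all called genes from 54.3% to 42.0% there, from 49.1% to 59.7% in resistant cells, from 49.8% to 59.7% between lines on drug and from 45.2% to 65.8% in the interaction. Leaving out 1 library at a time called 7 to 9, 5 to 6, 6 to 6, 5 to 6 and 5 to 6 members and 12 to 17, 12 to 15, 12 to 17, 16 to 18 and 9 to 12 related genes. A group left with 1 library was taken to vary like the others.

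With MANE Select lengths, the share of BCL2L1 was 59.4%, 60.8%, 56.7% and 56.6% in untreated and treated parental and resistant cells off and on drug, and that of MCL1 35.7% and 34.9% in untreated and treated parental cells. Besides the members named with their values in the report, the BOK interaction was lost without parental untreated replicate 1 (adjusted p = 0.063) and parental indisulam replicate 2 (adjusted p = 0.088), and that of BCL2L12 without parental untreated replicate 2 (adjusted p = 0.071) and resistant indisulam replicate 1 (adjusted p = 0.068). The cause of these losses was not tested. Technical replicates of a single line, and low counts for BCL2, BCL2L15 and DIABLO, limit what these values show.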
